A study of Mus musculus with 2 samples.

Results

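Peaks of Prrc2a RIP-seq were examined over the clustered protocadherin genes, which were taken as all protein-coding genes of GENCODE release M21 whose symbol starts with Pcdha, Pcdhb or Pcdhg. There were 57 such genes among 21951 protein-coding genes, of which 14 belong to the Pcdha cluster, 22 to the Pcdhb cluster and 21 to the Pcdhg cluster. All lie in a single stretch of the plus strand of chromosome 18 (mm10, GRCm38), between positions 36930184 and 37841873. RIP-seq sequences the RNA that comes down with a protein, here through an antibody against Prrc2a, a large RNA-binding protein. The RNA came from whole brain of wild type C57BL/6J male mice aged 4 weeks, and the 2 samples, called replicate 1 and replicate 2, were the only condition. The study calls them biological replicates, while the labels do not say which animals went into each, so how much of the spread between them is technical is unknown. Peaks had been called in each replicate separately, and each peak has a position and a fold enrichment, which is the immunoprecipitate divided by a control that the methods do not name. A replicate 1 peak was called shared when it overlapped a replicate 2 peak by at least 1 bp.

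Clustered protocadherins are cell surface proteins of the cadherin superfamily that neurons use to tell their own branches from those of other cells. In the Pcdha and Pcdhg clusters, each gene has a long variable first exon with its own promoter, which encodes the extracellular part, the membrane span and the start of the tail, and which is spliced to a set of constant exons common to the cluster. Pcdhb genes are nearly all single exons and have no constant part. A neuron switches on a few variable promoters in a combination that differs from cell to cell, while the C-type genes at the ends of the Pcdha and Pcdhg clusters are used more broadly.

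Peaks lay over all 3 clusters, and nearly all of them lay over the long variable exons. Replicate 1 had 65 peaks over exons of these genes and replicate 2 had 82, each counted once, and 43 of the replicate 1 peaks were shared. In replicate 1 alone, exons of 33 of the 57 genes lay under a peak (16.5% of all protein-coding genes), and in replicate 2 alone exons of 46 (21% of all). By the rule that any exon counts, 29 of the 57 genes had a shared peak, in comparison with 12.0% of all protein-coding genes. This count is inflated in Pcdha, where all 14 genes counted because a single peak in the last constant exon belongs to each of them. In Pcdhg, 5 genes counted, among them Pcdhgb1, which counted only because a processed transcript of Pcdhgb1 has an exon within the first exon of Pcdhga4. The remaining 10 genes were of the Pcdhb cluster. The depth of the libraries is unknown, so the absence of a peak may mean only that reads were few, and in whole brain fewer cells that use a gene and less of its RNA per cell cannot be told apart either.

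Each of the 57 genes has exactly 1 exon with at least 2000 bases of coding sequence, so the genes were next compared by this long coding exon alone, which was between 2346 and 8695 bases long. With this measure, 24 of 57 exons (42.1%) had a shared peak. Among 687 exons with at least 2000 coding bases in 662 other protein-coding genes, the background was 45.1%. Beyond this floor the exons were not matched in length, and a longer exon has more room for a peak. The 687 other exons held 2712600 bases and the 57 member exons 182779. Of the latter, 35214 were in 14 Pcdha exons, 92507 in 22 Pcdhb exons and 55058 in 21 Pcdhg exons. By this count of exons with a shared peak, the clustered protocadherins as a whole stood close to other genes with long coding exons. The clusters differed in these lists. A shared peak lay over the long exon of 10 of 14 Pcdha genes (71.4%), of 10 of 22 Pcdhb genes (45.5%) and of 4 of 21 Pcdhg genes (19.0%). A peak of replicate 1 lay over 13, 14 and 4 of these exons, which is 31 of 57 beside 51.7% of the exons of other genes, and a peak of replicate 2 over 12, 16 and 16, which is 44 of 57 beside 54.4%. With 1 condition and 2 replicates there was no test of these differences.

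**Figure D1:**
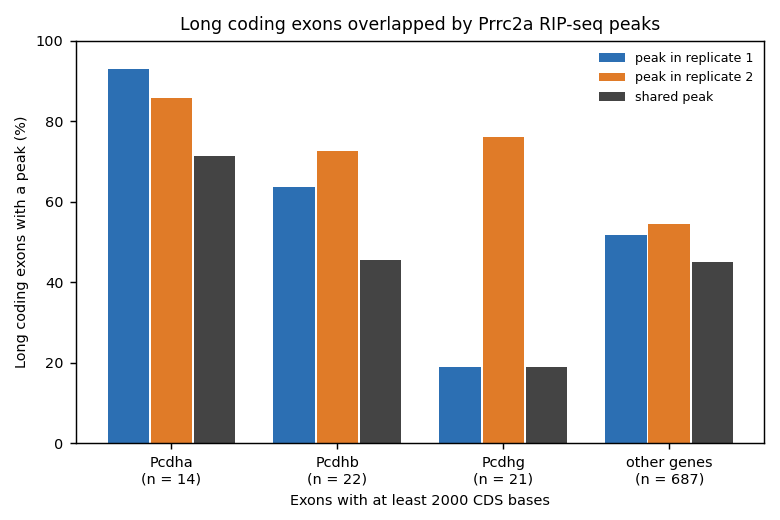
Percent of long coding exons (at least 2000 CDS bases) overlapped by a peak of replicate 1 (blue), by a peak of replicate 2 (orange) and by a shared peak (dark grey), for the Pcdha, Pcdhb and Pcdhg genes and for 687 exons of other genes. The shared share was 71.4% in Pcdha, 45.5% in Pcdhb, 19.0% in Pcdhg and 45.1% in other genes, and the Pcdhg bars of the replicates stand far apart.

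The replicates gave like numbers for Pcdha and Pcdhb and very different ones for Pcdhg. Over Pcdha exons there were 27 peaks in replicate 1 and 21 in replicate 2 (24 ± 4.24, SD, n = 2), and over Pcdhb exons 32 and 30 (31 ± 1.41, SD, n = 2). Over Pcdhg exons there were 6 peaks in replicate 1 and 31 in replicate 2 (18.5 ± 17.7, SD, n = 2), although the whole lists held similar numbers of peaks, 18129 and 18671. All 6 Pcdhg peaks of replicate 1 were shared, which is 100% of its list but 19.4% of the 31 in replicate 2. In Pcdha, 63.0% of the replicate 1 peaks and 85.7% of the replicate 2 peaks were shared, and in Pcdhb 62.5% and 60.0%. Across the whole lists these shares were 46.2% and 47.8%. The low count of shared peaks in Pcdhg rests on replicate 1, and whether this came from the library was not tested.

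The part of the long exons under peaks was largest in Pcdha in both replicates. Peaks covered 58.1% of the bases of the Pcdha long exons in replicate 1 and 41.2% in replicate 2 (49.7% ± 12.0, SD, n = 2). In Pcdhb they covered 20.4% and 16.9% (18.7% ± 2.52, SD, n = 2). In Pcdhg they covered 4.04% and 24.0% (14% ± 14.1, SD, n = 2). The 2 Pcdha values lay above all 4 values of the other clusters, whereas the Pcdhb and Pcdhg values overlapped. For comparison, 31.6% and 26.7% of the bases of the long coding exons of other genes lay under peaks. Bases covered in both replicates made up 32.3% in Pcdha, 9.32% in Pcdhb, 3.10% in Pcdhg and 20.4% in other genes. Over the long exons of all 57 genes they made up 11.9%, which is below other genes.

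**Figure D2:**
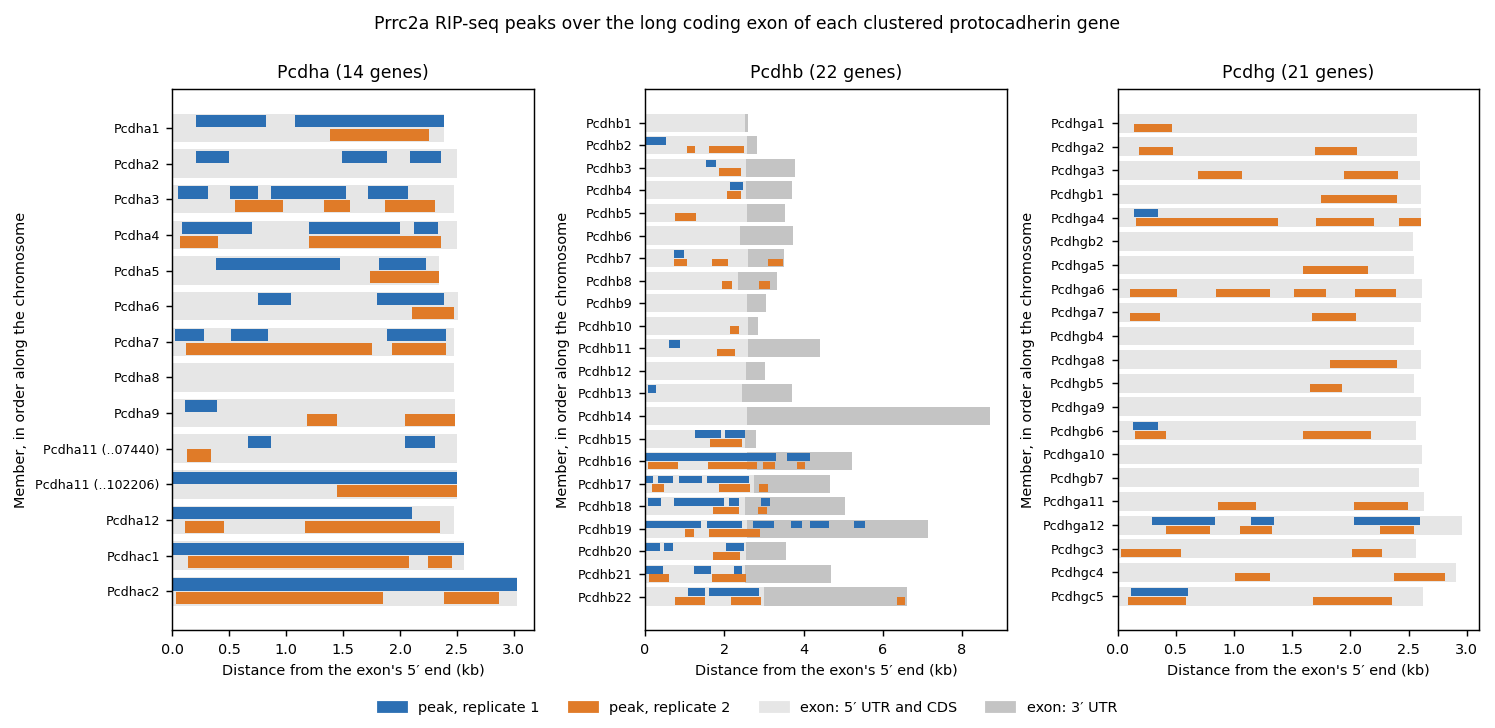
Prrc2a RIP-seq peaks of replicate 1 (blue, upper row of each gene) and replicate 2 (orange, lower row) along the long coding exon of the 57 clustered protocadherin genes, drawn to scale within each panel as distance from the exon's 5′ end in kb, with the 3′ UTR of Pcdhb exons in darker grey. Peaks lie over every Pcdha exon except that of Pcdha8, gather in the lower part of the Pcdhb panel from Pcdhb15 on, and are nearly all from replicate 2 in the Pcdhg panel.

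Within Pcdha, the shared peaks with the highest mean fold enrichment lay over variable exons spread along the cluster. Pcdha1 (ENSMUSG00000103442), the first gene of the cluster, had the highest, with a fold enrichment of 8.24 in replicate 1 (36931364 to 36932679) and 5.65 in replicate 2 (36931666 to 36932535), both in the CDS. The next was a peak near the 3′ end of the Pcdha7 exon (ENSMUSG00000104318), from 36975687 to 36976208 in replicate 1 and from 36975735 to 36976207 in replicate 2, with 5.22 and 4.94. Pcdha7 carried another pair, a replicate 1 peak at its 5′ end (36973825 to 36974082) with 4.20 and a wider replicate 2 peak (36973925 to 36975559) with 4.34. The latter replicate 2 peak also overlapped the remaining replicate 1 peak of Pcdha7, which had 2.92. Replicate 1 was the higher for Pcdha1, and for Pcdha7 the replicates were close in 2 pairs and differed in the one with the 2.92 peak.

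GENCODE M21 gives the symbol Pcdha11 to 2 genes, and they are kept apart here by identifier. For ENSMUSG00000102206, which RefSeq also calls Pcdha11, the replicate 1 peak was 2656 bp wide (37010639 to 37013294), covered 100% of the exon and had a fold enrichment of 4.63. In replicate 2 a peak of 1052 bp (37012200 to 37013251) with 5.30 covered the 3′ part of this exon, 42.1% of its bases. The other, ENSMUSG00000007440, is called Pcdha10 by RefSeq and had peaks in both lists, of up to 2.79 in replicate 1 and of 5.14 in replicate 2, which did not overlap. So the genes with this symbol differed in whether their peaks were shared.

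Pcdha3 and Pcdha4 complete the 5 Pcdha genes with the highest mean fold enrichment. The strongest of 3 shared peaks of Pcdha3 (ENSMUSG00000102312) lay from 36946972 to 36947630 in replicate 1 and had 4.05 there and 4.38 in replicate 2. In Pcdha4 (ENSMUSG00000104252), the peak from 36953848 to 36954650 had 3.63 in replicate 1, and the replicate 2 peak that contained it (36953845 to 36955011) had 4.72. Both genes had 3 shared peaks, a number that only Pcdha7 reached among the other genes of the cluster.

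The remaining Pcdha genes with a shared peak over their own exon were Pcdha5, Pcdha6, Pcdha12, Pcdhac1 and Pcdhac2. Their strongest shared peaks had fold enrichments from 2.11 to 3.79 in replicate 1 and from 2.60 to 4.48 in replicate 2. Among them were both C-type genes of the cluster. The peaks of replicate 1 covered 100% of the long exon of Pcdhac1 and of Pcdhac2, which is known for its part in the spacing of serotonergic axons, and those of replicate 2 covered 84.1% and 76.2%. Over the exons of both C-type genes together, 79.8% of the bases lay under peaks in both replicates, whereas over the 12 other Pcdha genes this was 23.3%. The fold enrichments of the C-type peaks did not stand out, with 3.64 and 4.48 for Pcdhac1 and 2.19 and 3.16 for Pcdhac2.

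The 4 Pcdha genes without a shared peak over their long exon were of 3 kinds. Pcdha9 and ENSMUSG00000007440 had peaks in both lists at different places. Pcdha2 had 3 peaks in replicate 1, of up to 3.60, and none in replicate 2. Pcdha8 had none in either replicate. The highest fold enrichment of any replicate 1 peak over these genes was also not shared: a peak of Pcdha5 from 36960823 to 36961911 had 11.72, with no replicate 2 peak over it, while the weaker Pcdha5 peak downstream was shared with 3.16 and 3.46.

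Variable exons of Pcdha resemble each other, and the authors kept only reads with a single place in the genome. Of all stretches of 100 bases within the Pcdha long exons, 5.35% occurred at least once more in the locus, and 12 of the 14 genes had such a stretch. In Pcdhg this share was 1.50% and in Pcdhb 0.354%. Pcdha8, with no peak, had 5.34%. ENSMUSG00000102206, with peaks over 100% of its exon in replicate 1 and 42.1% in replicate 2, had 13.0%. Pcdhac1 and Pcdhac2 had none. The part of repeated sequence in the presence or absence of peaks was not tested.

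Constant exons carried 1 peak of each replicate in Pcdha and none in Pcdhg. Peaks of replicate 1 numbered 0.69 per kb over the variable exons of Pcdha and 0.35 per kb over its constant exons, and those of replicate 2 numbered 0.53 and 0.35 per kb, though the constant exons hold only 2.86 kb. By bases the gap was narrower in replicate 2, where peaks covered 38.3% of the variable and 33.8% of the constant exons, than in replicate 1, with 54.2% and 30.8%. The constant peak was shared and lay in the 3′ UTR of the last exon, from 37186418 to 37187298 in replicate 1 and from 37186652 to 37187618 in replicate 2. With 1.52 and 1.73, it had the lowest mean fold enrichment of the 43 shared peaks. The constant exons of Pcdhg, 2.12 kb in all (37825021 to 37825079, 37833265 to 37833353 and 37839903 to 37841873), had no peak in either replicate. Their variable exons had 0.09 peaks per kb in replicate 1 and 0.47 in replicate 2.

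How a constant base is defined mattered for 1 shared peak. When a base counted as constant once it lay in exons of at least 2 genes of the cluster, 41 shared peaks were over variable and 2 over constant exons. One of the latter is the Pcdhga4 peak, in a stretch of 1038 bases that counted only through the processed transcript of Pcdhgb1. When a constant base had to lie in exons of at least 50% of the genes, the counts were 42 and 1.

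In the Pcdhb cluster, shared peaks lay mainly over the genes at its downstream end. All 8 genes from Pcdhb15 to Pcdhb22 had a shared peak, with 18 shared peaks between them. Among the 14 genes from Pcdhb1 to Pcdhb14, only Pcdhb4 and Pcdhb7 did, with 1 each. This split was chosen after the values were seen and was not tested. Peaks covered 42.9% of the bases of the Pcdhb15 to Pcdhb22 exons in replicate 1 and 27.0% in replicate 2, but 3.51% and 9.23% of those of Pcdhb1 to Pcdhb14. Pooled, the downstream exons were the more covered in both replicates, but single genes overlapped in replicate 2, where 38.5% of Pcdhb2 and 32.9% of Pcdhb7 lay under peaks and only 17.5% of Pcdhb18.

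Pcdhb16 (ENSMUSG00000047910) had the Pcdhb peak with the highest mean fold enrichment, a replicate 1 peak 3303 bp wide from 37477819 to 37481121 with 4.54 and a replicate 2 peak from 37479401 to 37480645 with 5.49. It was followed by Pcdhb19 (ENSMUSG00000043313), whose peaks from 37498554 to 37499438 and from 37498608 to 37499892 had 3.42 and 6.48. Pcdhb21 (ENSMUSG00000044022) was similar, with 3.10 in a narrow replicate 1 peak (37515872 to 37516072) and 6.52 in the replicate 2 peak around it (37515303 to 37516156). All 3 had the higher value in replicate 2, and for Pcdhb19 and Pcdhb21 the gap was wide, with log2 ratios of replicate 1 to replicate 2 of -0.92 and -1.07.

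Pcdhb22 (ENSMUSG00000073591), the last gene of the cluster, had 3.66 from 37519495 to 37520756 in replicate 1 and 5.43 from 37520034 to 37520805 in replicate 2. Pcdhb4 (ENSMUSG00000045689) was the one among the 5 strongest that lies upstream, and here replicate 1 was higher, with 5.25 (37309599 to 37309921) against 3.35 (37309518 to 37309870). The other Pcdhb genes with a shared peak were Pcdhb7, Pcdhb15, Pcdhb17, Pcdhb18 and Pcdhb20. Their strongest shared peaks had 2.14 to 3.83 in replicate 1 and 2.57 to 3.81 in replicate 2. Pcdhb19 had the most peaks of any of these genes in a single replicate, 6 in replicate 1.

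Of the 12 Pcdhb genes without a shared peak, Pcdhb2, Pcdhb3 and Pcdhb11 had peaks in both lists that did not meet. In Pcdhb2, a replicate 1 peak at the 5′ end (37294825 to 37295352) reached 7.48 and a replicate 2 peak further downstream (37296420 to 37297302) reached 5.22. Pcdhb13 had a peak in replicate 1 only, of 3.60. Pcdhb5, Pcdhb8 and Pcdhb10 had peaks in replicate 2 only, of up to 5.02, 4.65 and 1.90. No peak was found over Pcdhb1, Pcdhb6, Pcdhb9, Pcdhb12 and Pcdhb14. The exon of Pcdhb14 is the longest of all at 8695 bases, of which 6120 are 3′ UTR and 2388 CDS.

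**Figure D3:**
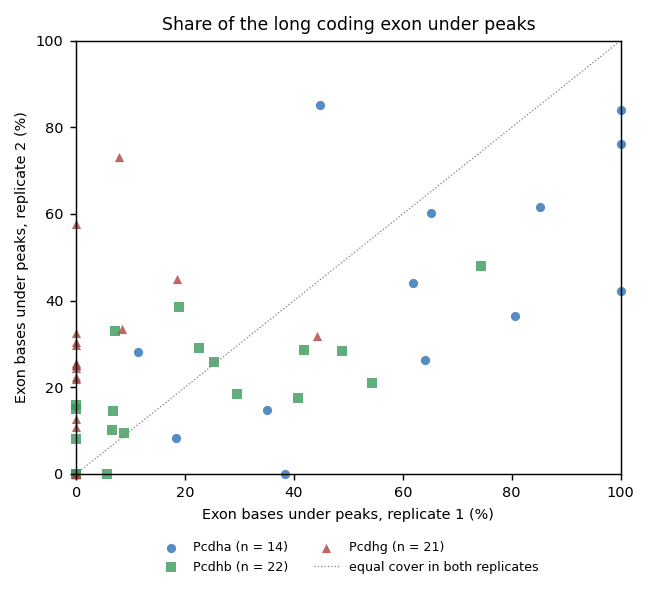
Percent of the bases of each long coding exon under peaks in replicate 1 (x axis) and replicate 2 (y axis), 1 point per gene, for 14 Pcdha genes (circles), 22 Pcdhb genes (squares) and 21 Pcdhg genes (triangles), with 11 genes at 0 in both. Most Pcdha genes lie below the line of equal cover, and most Pcdhg genes with a peak lie on the y axis, where replicate 1 has none.

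In the Pcdhg cluster, 4 genes had a shared peak over their long exon, and their fold enrichments were low in both replicates. Pcdhga12 (ENSMUSG00000102428), the last of the A-type genes, had 3, the strongest from 37765875 to 37766416 with 2.20 in replicate 1 and from 37765998 to 37766370 with 3.33 in replicate 2. Pcdhga4 (ENSMUSG00000103677) had 2.78 in a peak of 207 bp (37685350 to 37685556) and 2.69 in one of 1220 bp (37685365 to 37686584). Pcdhgb6 (ENSMUSG00000103088) had 1.93 (37742223 to 37742438) and 1.76 (37742247 to 37742512). Pcdhgc5 (ENSMUSG00000102543), a C-type gene, had 1.77 (37819626 to 37820114) and 1.84 (37819599 to 37820096). Apart from Pcdhga12, these fold enrichments were close between replicates, but the cover was not, since peaks of replicate 1 and replicate 2 covered 7.94% and 73.1% of the Pcdhga4 exon, 8.42% and 33.5% of that of Pcdhgb6 and 18.6% and 45.0% of that of Pcdhgc5.

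Peaks of replicate 2 alone lay over the long exon of 12 Pcdhg genes, which were Pcdhga1, Pcdhga2, Pcdhga3, Pcdhgb1, Pcdhga5, Pcdhga6, Pcdhga7, Pcdhga8, Pcdhgb5, Pcdhga11, Pcdhgc3 and Pcdhgc4. The highest value among them was 6.24 in Pcdhga1 (37661933 to 37662256). The lowest of their strongest peaks was that of Pcdhgc3, which has been tied to the growth of cortical dendrites, with 1.47. For Pcdhgc4, the isoform that cortical interneurons need to survive, it was 1.95. Peaks covered 57.6% of the Pcdhga6 exon and 10.7% to 32.6% of the 11 others in replicate 2, and none of their bases in replicate 1. Pcdhgb2, Pcdhgb4, Pcdhga9, Pcdhga10 and Pcdhgb7 had no peak. In replicate 2, the A-type genes had a peak in 10 of 12, the B-type genes in 3 of 6 and the C-type genes in 3 of 3, beside 54.4% of the long coding exons of other genes.

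Over all 43 shared peaks, the median fold enrichment was 2.99 in replicate 1 (1.52 to 8.24) and 3.35 in replicate 2 (1.73 to 6.52), beside 2.35 and 2.88 over all 8372 shared peaks of the lists. By cluster the medians were 3.63 and 4.34 for the 17 Pcdha peaks, 3.05 and 3.50 for the 20 Pcdhb peaks and 2.02 and 2.22 for the 6 Pcdhg peaks. In these pairs the order of the clusters was the same in both replicates. It did not hold for Pcdha and Pcdhb when each shared replicate 2 peak counted once. Their replicate 2 medians were then 3.53 and 3.58, beside 2.22 for Pcdhg. The Pcdhg medians lay below those of all shared peaks while the others lay above. Replicate 2 had the higher value in 31 of the 43 pairs, which are not all distinct. Some replicate 2 peaks are the partner of more than 1 replicate 1 peak and count once for each. Over the pairs, the log2 ratio of replicate 1 to replicate 2 was -0.24 in the median, with an SD of 0.47 between peaks, which are not replicates. Both values were at least 4 in 5 Pcdha peaks of 4 genes and in 1 Pcdhb peak, that of Pcdhb16. This makes 5 of 57 genes in comparison with 1.59% of all protein-coding genes. No background of like exon length was computed at this fold enrichment, so an excess cannot be read from these shares.

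**Figure D4:**
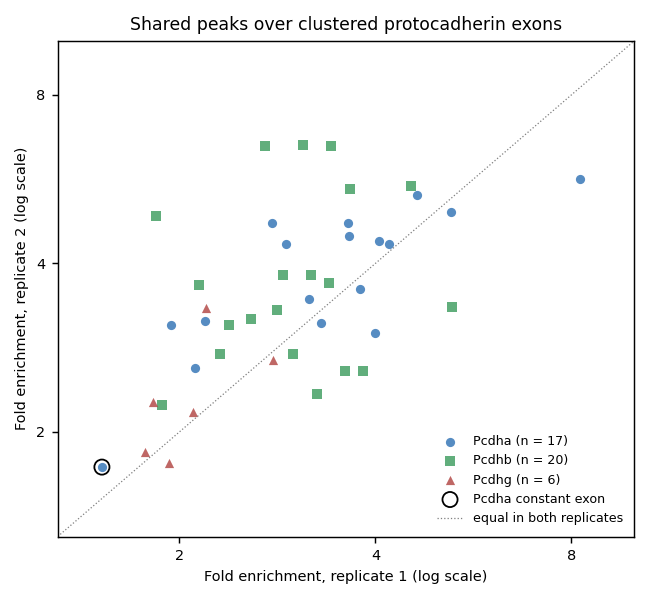
Fold enrichment of the 43 shared peaks in replicate 1 (x axis, log scale) and in the replicate 2 peak that overlaps it most (y axis, log scale), for Pcdha (circles), Pcdhb (squares) and Pcdhg (triangles), with the Pcdha constant exon ringed. The ringed point lies lowest on both axes at 1.52 and 1.73, Pcdhg points stay at or below 3.33, and 31 of 43 points lie above the line of equal values.

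Shared peaks lay mostly inside coding sequence. At the midpoint, 38 of the 43 were in CDS, 4 in 3′ UTR and 1 in 5′ UTR. CDS made up 33645 of the 35214 bases of the Pcdha long exons and 50808 of the 55058 of Pcdhg. Peaks over these exons could therefore hardly lie elsewhere. In Pcdhb, 16 of 20 shared peaks were in CDS, which made up 52521 of 92507 bases. Pcdhb exons are the ones with long 3′ UTRs, and there peaks covered 27.8% and 24.3% of the CDS in replicate 1 and 2, but 8.59% and 6.76% of the 3′ UTR. For these genes the coding part was therefore more covered than the 3′ UTR in both replicates.

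With the CDS cut into 3 equal parts, the 3′ part was the most covered in each cluster in replicate 2. Its share was 55.3% in Pcdha, 49.3% in Pcdhb and 36.3% in Pcdhg, whereas that of the 5′ part was 32.3%, 12.9% and 26.1% and that of the middle part 37.3%, 10.8% and 12.7%. In replicate 1 the parts were alike in Pcdhb, with 27.5%, 27.4% and 28.7% from 5′ to 3′, and in Pcdha, with 60.2%, 53.2% and 60.6%, while in Pcdhg the 5′ part was the highest, with 7.66%, 0.703% and 2.64%. The bases covered in both replicates were again most frequent in the 3′ part for Pcdha (42.8%) and Pcdhb (27.0%). For Pcdhg they were most frequent in the 5′ part, at 7.14%. The 3′ part of this CDS encodes the part of the protein nearest to the membrane, the membrane span and the tail.

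**Figure D5:**
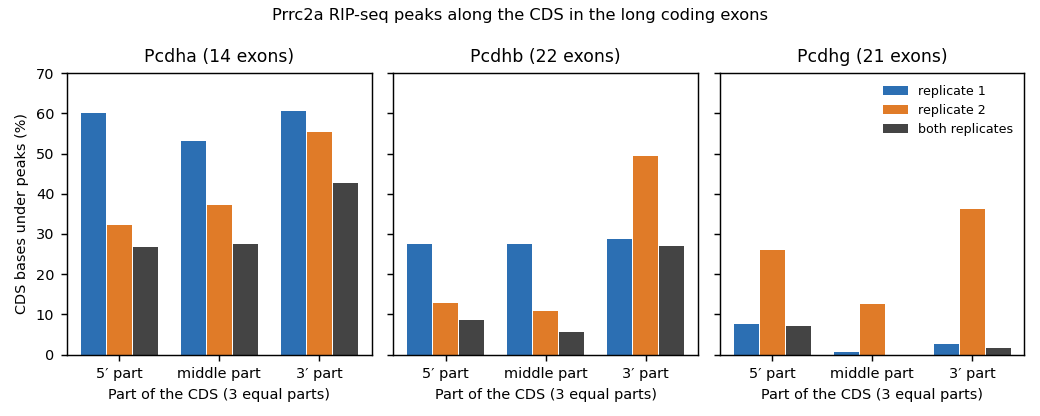
Percent of CDS bases under peaks in the 5′, middle and 3′ part (3 equal parts) of the CDS in the long coding exons, for replicate 1 (blue), replicate 2 (orange) and bases covered in both (dark grey), in Pcdha, Pcdhb and Pcdhg. In replicate 2 the 3′ part is the highest in each cluster (55.3%, 49.3% and 36.3%), whereas the replicate 1 bars of Pcdhb hardly differ between parts.

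Base composition differed along these exons together with the peaks. Bases of the 57 long exons under peaks in both replicates were 55.8% G or C, and bases under no peak were 46.4%. In long coding exons of other genes the values were 52.9% and 46.9%. The letters GGAC, the core in which m6A is usually found, were counted on the coding strand and stood 6.55 times per kb in bases covered in both replicates and 4.36 times per kb in bases covered in neither, beside 4.87 and 3.67 in other genes. These pooled values mix clusters of unlike composition, with 53.5% G or C over all Pcdha long exon bases and 44.7% over those of Pcdhb. Of the 21690 pooled bases covered in both, 11364 were of Pcdha. Of the 119542 covered in neither, 66611 were of Pcdhb. Within clusters, GGAC was more frequent in covered bases in Pcdhb, with 6.61 and 3.42 per kb, and in Pcdhg, with 9.37 and 5.20. In Pcdha it was not, with 6.07 and 6.72 per kb. The Pcdhg value for covered bases rests on 16 matches in 1708 bases. The content of G and C was higher in covered than in uncovered bases in each cluster, with 56.7% and 51.8% in Pcdha, 53.7% and 42.4% in Pcdhb and 59.9% and 51.3% in Pcdhg, so in Pcdha it went the other way from the motif. Among these long exons only those of Pcdhb hold 3′ UTR, of which 3.04% was covered in both replicates, against 13.8% of their CDS. The Pcdhb bases covered in neither therefore held more 3′ UTR, and CDS and 3′ UTR were not compared separately. The part of the motif or of the G and C content in the position of peaks was not tested.

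The lists hold no strand. Antisense genes have exons over the long exon of 13 of the 57 genes, and 4 of the 43 shared peaks overlapped such an exon, in Pcdha4, Pcdha11 (ENSMUSG00000102206), Pcdha12 and Pcdhga12. For these peaks the sense and the antisense RNA cannot be told apart. The read-through genes Gm42416, Gm37013 and Gm37388, annotated on the same strand, share exons with Pcdha4, Pcdha6 and Pcdha7. All 3 shared peaks of Pcdha4, the 1 of Pcdha6 and 1 of the 3 of Pcdha7 overlap their exons too. No peak lay over Taf7 or Slc25a2, which sit between the clusters.

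Protocadherins outside the clusters, which are scattered over the genome and are not spliced to constant exons of this kind, mostly had shared peaks. A shared peak lay over exons of 10 of 12 such genes, and Pcdh8 and Pcdh12 had none. All protein-coding genes together stood at 12.0%, but these genes have long exons, with 4538 to 23773 exonic bases, and no background of like length was computed for them. The strongest were those of Pcdh10 (4.20 in replicate 1 and 5.90 in replicate 2), of the epilepsy gene Pcdh19 (3.80 and 5.25) and of Pcdh11x (3.61 and 5.35), all within the range of the Pcdha and Pcdhb peaks. Among 12 regulators of promoter choice in the clusters, including Ctcf and the cohesin subunits, which fold the locus into loops, only the cohesin loader Nipbl had a shared peak, with 1.61 and 1.98. Of 6 partners and proteases of the clustered proteins, only the focal adhesion kinase Ptk2 did, with 2.53 and 3.06. For both lists the shared count is near the rate of all protein-coding genes given above. The single replicates differed from this. Of the 12 regulators, 4 had a peak in replicate 1 and 5 in replicate 2, in both a larger share than of all protein-coding genes. Of the 6 partners and proteases, 1 and 2 had a peak, a larger share in replicate 2 and a similar one in replicate 1. The lists are short and were not matched in exon length, and these differences were not tested.

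Markers of brain cell types had few shared peaks, as did protein-coding genes in general (12.0%). None of 5 neuronal markers, among them Snap25, Syt1 and Rbfox3, had one, nor did any of 4 liver markers. One of 5 astrocyte markers (Slc1a2, 3.76 and 4.01), 1 of 5 oligodendrocyte markers (Olig2, 1.69 and 1.75) and 1 of 4 microglia markers (Csf1r, 2.10 and 2.33) did. A peak is an enrichment over a control and not a level of RNA, so these lists do not measure how much of each cell type was present.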

How the data were processed

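Reads had been trimmed and mapped to mm10 with TopHat, those with 1 place in the genome kept, and peaks called by the authors with MACS2 in each replicate (TopHat2 2.0.9 and MACS2 2.0.10 in the submitters' processing notes, while the methods name other versions). The deposited values are peak positions, counted from 1 at both ends, and a fold enrichment (a linear ratio), without read counts, FDR, summit or strand. Depth and the precision it gives are therefore unknown. Labels name both a stranded library kit and a TruSeq v2 kit.

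Peaks were set against exons of all transcripts of GENCODE M21 with Python 3.11.15, numpy 2.4.6, pysam 0.24.0 and samtools 1.23.1, and composition was read from the GRCm38.p6 sequence. Figures were drawn with matplotlib 3.10.9. An overlap needed at least 1 bp. The partner of a shared peak was the replicate 2 peak with the longest overlap, and a peak over both kinds of exon went to the kind with more of its bases. Repeated stretches of 100 bases were sought on both strands of the locus with 20000 bases on each side. The functions were tested on simulated data, and all 14 of 14 quantities were recovered. Genes with a shared peak outside constant exons were named, with positions for the 5 strongest of each cluster, as were genes with peaks in 1 replicate only or in none where there were 12 or fewer in a cluster, and the 3 strongest of each other list. The members and lists were chosen with earlier results of these data known. Alternatives changed 1 choice at a time, and counting the long coding exon alone was added after seeing the data. No test was made, as there was 1 condition. Sequences are not shown here.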

Additional observations from a re-analysis of the deposited data

How the results depend on the processing

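Of the 12 counts and medians, 45 recomputed values stayed within 1.5 times and 28 moved further. At a fold of 4 or more in each of both peaks, 5 shared peaks in 4 genes remained in Pcdha, 1 peak in 1 gene in Pcdhb and 0 in 0 genes in Pcdhg, in comparison with 1.59% of all protein-coding genes, which are not matched in exon length. That left 6 over variable and 0 over constant exons. Of the other lists, 1 non-clustered protocadherin, 0 regulators and 0 partners passed. With an overlap of at least 50% of both peaks, there were 8 shared peaks in Pcdha and 10 in Pcdhb, 3 Pcdhg genes, and 22 peaks over variable and 1 over constant exons. Constant exons also held 1 shared peak with transcripts of the basic set or with the base required in at least 50% of the genes. With each replicate left out in turn, the peaks ranged from 21 to 27 in Pcdha, from 30 to 32 in Pcdhb and from 6 to 31 in Pcdhg. The genes ranged from 14 to 16 in Pcdhb and from 5 to 16 in Pcdhg, and stayed at 14 in Pcdha. Peaks over variable exons ranged from 63 to 80, regulators from 4 to 5 and partners from 1 to 2. In each replicate alone, the share of regulators with a peak was above that of all protein-coding genes, which are not matched in exon length. The Pcdhg values without replicate 1, 31 peaks in 16 genes, differ from the shared counts more than those of any other cluster. Counting the shared peaks of replicate 2, requiring 50% of a peak in exons, or taking the midpoint moved no count by over 1.5 times, and the median of 3.35 in replicate 2 was the same with the partner of highest fold enrichment. No paired analysis was possible because there was 1 group. The depth of the libraries limits all counts of genes without a peak and is unknown.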

Other observations

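Pcdhgb8 is annotated as a polymorphic pseudogene and was not among the 57 genes. It had 3 peaks in replicate 1, with fold enrichments of 2.52, 2.87 and 2.48, and none in replicate 2, whereas 12 protein-coding genes of the same cluster had peaks in replicate 2 only and none had peaks in replicate 1 only. Between the genes, no peak of either replicate lay outside member exons in the Pcdha span. In the Pcdhb span, 5 peaks of replicate 1 and 1 of replicate 2 did, with fold enrichments from 2.94 to 4.37, and none was shared or lay in an exon of RefSeq. The widest of them, 874 bp, began 169 bp downstream of the end of Pcdhb15.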
